A study of Mus musculus with 24 samples.

Results

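Natural killer (NK) and cytotoxic cell genes were followed through the RNA of hepatic cells sorted for CD11c and MHC class II. They are 10 genes of the 24874 that were not at 0 in every library: Klrb1c, Klrd1, Klrk1, Ncr1, Il2rb, Cd7, Nkg7, Ctsw, Gzmb and Eomes. They were taken by symbol and were selected on the deposited values of these libraries, as NK receptors, cytotoxic granule genes, Il2rb, Cd7 and Eomes that are lower in cells positive for the dye DiI. The difference between the DiI gates is therefore given below as a description with no test. All 10 passed the filter on low values, a mean of at least 4 on the deposited log2 scale.

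The mice were female C57BL/6 animals, and every group had eaten a diet lacking methionine and choline for 2 weeks, which induces steatohepatitis. Liposomes labelled with DiI, a membrane dye, were injected intravenously, either empty or carrying curcumin, a plant polyphenol. The cells were sorted 24 hours later as positive or negative for DiI, that is, with or without liposome dye. This gave 4 groups of 3 libraries: empty DiI-positive, empty DiI-negative, curcumin DiI-positive and curcumin DiI-negative. No group without liposomes and no group on another diet is used here, and DiI-negative cells came from mice that had also received liposomes. The labels give neither the age of the mice nor whether libraries of 1 group are from different animals or pools, so each p-value reflects library-to-library spread alone, and that spread may be technical.

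NK cells are innate lymphocytes that kill infected, stressed or transformed cells by releasing perforin and granzymes from cytotoxic granules. A balance of activating and inhibitory surface receptors controls the release, and interleukin-15, bound through the receptor chain that Il2rb encodes, keeps the cells alive. The liver is rich in NK cells and in related type 1 innate lymphoid cells (ILC1), and mouse NK cells can carry CD11c, a marker of the gate used here. Several of the 10 genes are also used by cytotoxic T cells.

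The genes of the gate were high in every library: the class II invariant chain Cd74 had group means from 19.19 to 19.30 on the log2 scale, and Itgax, which encodes CD11c, from 12.54 to 13.23. The level summed over 11 B cell markers (log2 of the summed values) ran from 16.55 to 17.71 in the 6 DiI-positive and from 15.90 to 16.43 in the 6 DiI-negative libraries. Summed over 10 Kupffer cell markers, it ran from 14.93 to 16.98 and from 12.75 to 13.52. Curcumin DiI-positive replicate 3 stood apart within its group, with the lowest B cell sum (16.55) and the highest sums of Kupffer cell (16.98), cDC1 (14.70) and plasmacytoid dendritic cell markers (13.24), where cDC1 are the cross-presenting type of conventional dendritic cell. Curcumin DiI-negative replicate 3 did so in the same way, with the lowest B cell sum of its group (15.90) and the highest Kupffer cell (13.52), cDC1 (15.20) and plasmacytoid sums (13.38). Read totals cannot be had from the deposited values. A relative depth index, which gives an order and not a read number, ran from 0.76 to 1.11 in DiI-positive and from 0.98 to 1.34 in DiI-negative libraries.

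RefSeq promoter windows on GRCm38.p6 were at hand for 6 of the 10 genes, Klrb1c, Klrk1, Ncr1, Nkg7, Eomes and Gzmb. The 250 bases before each gene start were searched on both strands for TCACAC (reverse complement GTGTGA), a core bound by T-box factors such as Eomes, and for TGTGGT (reverse complement ACCACA), a core bound by Runx factors. The Runx core was found in 5 of the 6 genes, Klrb1c, Klrk1, Ncr1, Nkg7 and Gzmb, against 14% of 32841 promoter windows of the same length. TCACAC was found in 3 of the 6, Ncr1, Nkg7 and Gzmb, against 12.3% of all windows. A gene was counted if any of its windows held a match (Ncr1 had a pair), while the shares are per window. No match of the first motif overlapped a match of the second. Such matches are letters in a window and were not shown to be bound. The windows of an NK receptor of the immunoglobulin family, an NK receptor of the lectin family, a granule enzyme and the transcription factor are printed below, each 5′ to 3′ on the strand of its gene, with matches in capitals. They are Ncr1 at chr7:4337465-4337714 (plus strand, the first of a pair of starts), Klrk1 at chr6:129623865-129624114 (minus strand), Gzmb at chr14:56262335-56262584 (minus strand) and Eomes at chr9:118477939-118478188 (plus strand), where neither core was found.
Ncr1: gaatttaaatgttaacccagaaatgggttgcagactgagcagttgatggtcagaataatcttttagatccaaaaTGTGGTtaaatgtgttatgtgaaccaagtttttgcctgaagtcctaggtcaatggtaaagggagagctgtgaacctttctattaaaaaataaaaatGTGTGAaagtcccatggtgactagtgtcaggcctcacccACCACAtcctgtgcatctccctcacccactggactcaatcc
Klrk1: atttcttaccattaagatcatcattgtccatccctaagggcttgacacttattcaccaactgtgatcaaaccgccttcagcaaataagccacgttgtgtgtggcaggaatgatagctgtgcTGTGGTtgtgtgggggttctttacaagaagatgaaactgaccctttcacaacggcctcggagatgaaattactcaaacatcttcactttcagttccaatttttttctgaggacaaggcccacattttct
Gzmb: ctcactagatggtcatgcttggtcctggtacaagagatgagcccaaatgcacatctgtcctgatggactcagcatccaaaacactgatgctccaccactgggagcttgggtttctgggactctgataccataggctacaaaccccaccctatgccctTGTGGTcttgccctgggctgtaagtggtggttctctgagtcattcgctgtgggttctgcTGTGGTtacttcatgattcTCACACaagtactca
Eomes: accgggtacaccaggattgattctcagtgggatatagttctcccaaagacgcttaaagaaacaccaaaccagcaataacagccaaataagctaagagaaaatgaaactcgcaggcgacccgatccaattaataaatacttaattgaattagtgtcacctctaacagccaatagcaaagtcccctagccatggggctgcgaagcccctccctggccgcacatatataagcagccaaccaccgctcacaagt
In Ncr1 the T-box core began 80 bases before the start and the Runx cores 176 and 41 bases before it. Klrk1 had a Runx core 129 bases before its start. In Gzmb the Runx cores began 93 and 34 bases and the T-box core 15 bases before the start. Nkg7 held both cores, 83 (Runx) and 12 bases (T-box) before its RefSeq start, and Klrb1c a Runx core at 89 bases. Distances are from the RefSeq start, which for Gzmb and Eomes lies upstream of the gene as GENCODE M21 draws it. The windows of Nkg7 and Klrb1c overlap the genes as GENCODE M21 draws them and are not printed.

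The first comparison sets cells carrying liposome dye against sorted cells without it. Each of the 10 genes had a lower mean in DiI-positive cells under both liposomes. The differences in log2 ran from -2.29 (Il2rb) to -0.67 (Eomes) after empty liposomes, with a median of -1.65, and from -1.87 (Cd7) to -1.05 (Gzmb) after curcumin liposomes, with a median of -1.43; the median over all 14227 genes tested was 0.00 in each. Without curcumin DiI-positive replicate 3 the second median was -1.56, and without curcumin DiI-negative replicate 3 it was -1.41. The 3 DiI-positive libraries lay below the 3 DiI-negative ones for 9 of the 10 genes after empty liposomes (14.5% of all genes tested) and for 10 of 10 after curcumin liposomes (10.7% of all genes). All 6 DiI-positive libraries lay below all 6 DiI-negative ones for 8 of the 10, against 3.52% of all genes. These counts follow from how the genes were chosen. In bulk RNA, fewer cells of a type and less RNA per cell cannot be told apart. Values below are deposited log2 values, with mean ± SD over 3 libraries, and differences carry their standard error (SE) from the limma fit. The transform behind the log2 values is not stated, so folds hold on the deposited scale.

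**Figure D1:**
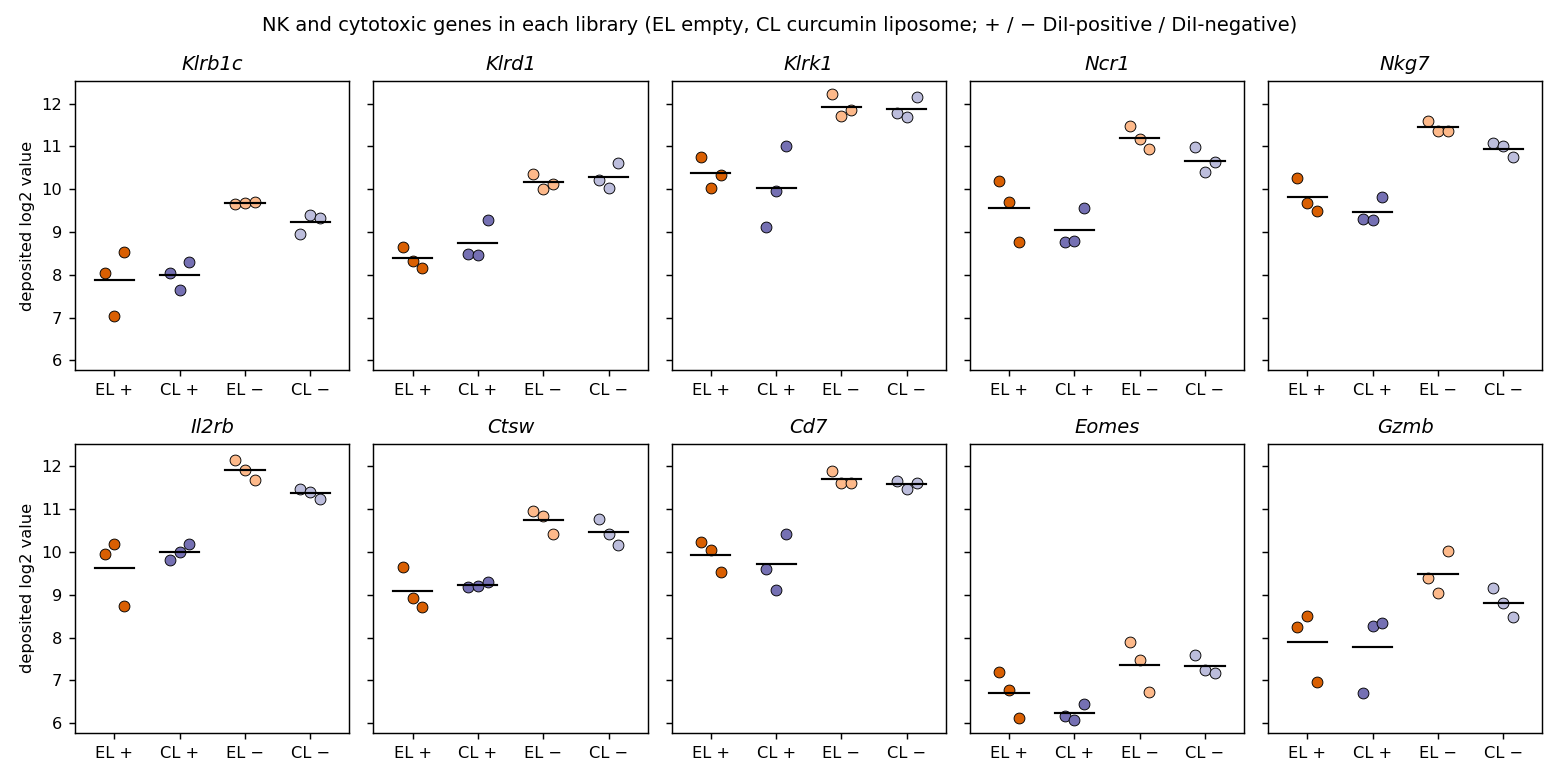
Deposited log2 values (vertical axis) of the 10 genes in each library, 1 panel a gene, for the empty (EL) and curcumin (CL) liposome groups of DiI-positive (+) and DiI-negative (−) cells; points are the 3 libraries of a group and lines their means. DiI-positive points lie below DiI-negative points except for Eomes and Gzmb, whose gates overlap.

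Klrb1c, Klrd1 and Klrk1 encode lectin-like receptors and lie on chromosome 6. Klrb1c (chromosome 6, 128778485 to 128789215) encodes NK1.1, the antigen by which NK cells of C57BL/6 mice are recognised. Its values were 8.04, 7.04 and 8.53 in empty DiI-positive replicates 1 to 3 and 8.04, 7.65 and 8.29 in the curcumin DiI-positive libraries. In DiI-negative cells they were 9.65, 9.69 and 9.71 after empty and 8.96, 9.39 and 9.33 after curcumin liposomes. The gates did not overlap, and the 3 empty DiI-negative libraries lay close together (SD 0.0314). The difference was -1.81 ± 0.308 (SE) after empty and -1.23 ± 0.308 after curcumin liposomes, 3.51-fold and 2.34-fold lower. A readthrough transcript, Gm44511, shares 13.9% of the exon bases of Klrb1c, and its reads could not be told apart from those of Klrb1c.

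Klrd1 (chromosome 6, 129591782 to 129598775) encodes CD94, which pairs with NKG2 chains to read the class I-like molecule Qa-1. It stood at 8.66, 8.33 and 8.16 in empty and 8.48, 8.46 and 9.29 in curcumin DiI-positive libraries, against 10.36, 10 and 10.12 in empty and 10.21, 10.04 and 10.61 in curcumin DiI-negative libraries. Curcumin replicate 3 was the high library in each gate. The differences were -1.78 ± 0.237 (SE) and -1.54 ± 0.237, close in size under both liposomes. Klrk1 (chromosome 6, 129610323 to 129623864) encodes NKG2D, an activating receptor for stress-induced ligands. Its DiI-positive values were 10.75, 10.03 and 10.33 after empty and 9.11, 9.97 and 11 after curcumin liposomes, and its DiI-negative values 12.22, 11.71 and 11.86, and 11.78, 11.69 and 12.15. The curcumin DiI-positive libraries were far apart, low in replicate 1 and high in replicate 3 (SD 0.943, against 0.24 to 0.363 in the other groups). Klrk1 was lower by -1.56 ± 0.372 (SE) after empty and -1.85 ± 0.372 after curcumin liposomes.

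Ncr1 (chromosome 7, 4337724 to 4345164) encodes NKp46, an activating receptor of the immunoglobulin family found on NK cells and ILC1. It was at 10.19, 9.71 and 8.77 in empty and 8.77, 8.78 and 9.57 in curcumin DiI-positive libraries, and at 11.48, 11.18 and 10.95 in empty and 10.98, 10.40 and 10.63 in curcumin DiI-negative libraries. No library crossed between the gates; the nearest were empty DiI-positive replicate 1 (10.19) and curcumin DiI-negative replicate 2 (10.40). The differences, -1.65 ± 0.333 (SE) and -1.63 ± 0.333, were nearly the same under both liposomes.

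Il2rb (chromosome 15, 78479256 to 78495271) encodes CD122, the chain that the receptors for interleukin-15 and interleukin-2 have in common. Its values were 9.94, 10.18 and 8.74 in empty and 9.81, 10 and 10.19 in curcumin DiI-positive libraries, against 12.15, 11.92 and 11.67 in empty and 11.47, 11.41 and 11.24 in curcumin DiI-negative libraries. Empty DiI-positive replicate 3 was the low library. The difference was -2.29 ± 0.297 (SE) after empty liposomes, 4.89-fold, and -1.37 ± 0.297 after curcumin liposomes, 2.59-fold. Cd7 (chromosome 11, 121036747 to 121039418) encodes a surface glycoprotein of T and NK cells. It was at 10.23, 10.05 and 9.53 in empty and 9.59, 9.11 and 10.43 in curcumin DiI-positive libraries, and at 11.89, 11.61 and 11.61, and 11.66, 11.46 and 11.62, in the DiI-negative libraries. Its differences were -1.77 ± 0.277 (SE) and -1.87 ± 0.277. An antisense gene, Gm11775, shares 10.8% of the exon bases of Cd7 and had a mean value of 9.90, so without strand part of the reads of one could be counted for the other.

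Among the granule genes, Nkg7 (chromosome 7, 43437073 to 43438249) encodes a membrane protein of cytotoxic granules. It stood at 10.27, 9.68 and 9.49 in empty and 9.30, 9.28 and 9.81 in curcumin DiI-positive libraries, against 11.60, 11.37 and 11.37 in empty and 11.09, 11 and 10.75 in curcumin DiI-negative libraries. Its SE was the smallest of the 10 genes, with differences of -1.63 ± 0.205 and -1.48 ± 0.205. Ctsw (chromosome 19, 5465043 to 5468507) encodes cathepsin W, a cysteine protease of NK and cytotoxic T cells. Its DiI-positive values were 9.65, 8.92 and 8.71 after empty and 9.18, 9.20 and 9.29 after curcumin liposomes, and its DiI-negative values 10.96, 10.85 and 10.41, and 10.77, 10.43 and 10.17. The curcumin DiI-positive libraries lay close together (SD 0.0563). The differences of Ctsw were -1.65 ± 0.236 (SE) and -1.23 ± 0.236.

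Gzmb and Eomes were the least separated. Gzmb (chromosome 14, 56258838 to 56262260) encodes granzyme B, a serine protease that triggers death of the target cell. It was at 8.25, 8.50 and 6.96 in empty and 6.70, 8.27 and 8.34 in curcumin DiI-positive libraries, against 9.39, 9.03 and 10.03 in empty and 9.16, 8.81 and 8.48 in curcumin DiI-negative libraries. One library of each DiI-positive group was low, and the highest DiI-positive library (8.50) lay just above the lowest DiI-negative one (8.48). The differences were -1.58 ± 0.482 (SE) and -1.05 ± 0.482, and the second was -0.51 without curcumin DiI-positive replicate 1. Eomes (chromosome 9, 118478212 to 118486132) encodes the T-box factor eomesodermin, which NK cells carry and ILC1 lack. It had the lowest values of the 10: 7.19, 6.77 and 6.13 in empty and 6.17, 6.08 and 6.44 in curcumin DiI-positive libraries, and 7.90, 7.48 and 6.73 in empty and 7.59, 7.25 and 7.18 in curcumin DiI-negative libraries. After empty liposomes the gates overlapped, with a difference of -0.67 ± 0.305 (SE) that was -0.39 without empty DiI-positive replicate 3. After curcumin liposomes they did not, with a difference of -1.11 ± 0.305. Whether the unstated transform narrowed differences at low values such as those of Eomes was not tested.

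**Figure D2:**
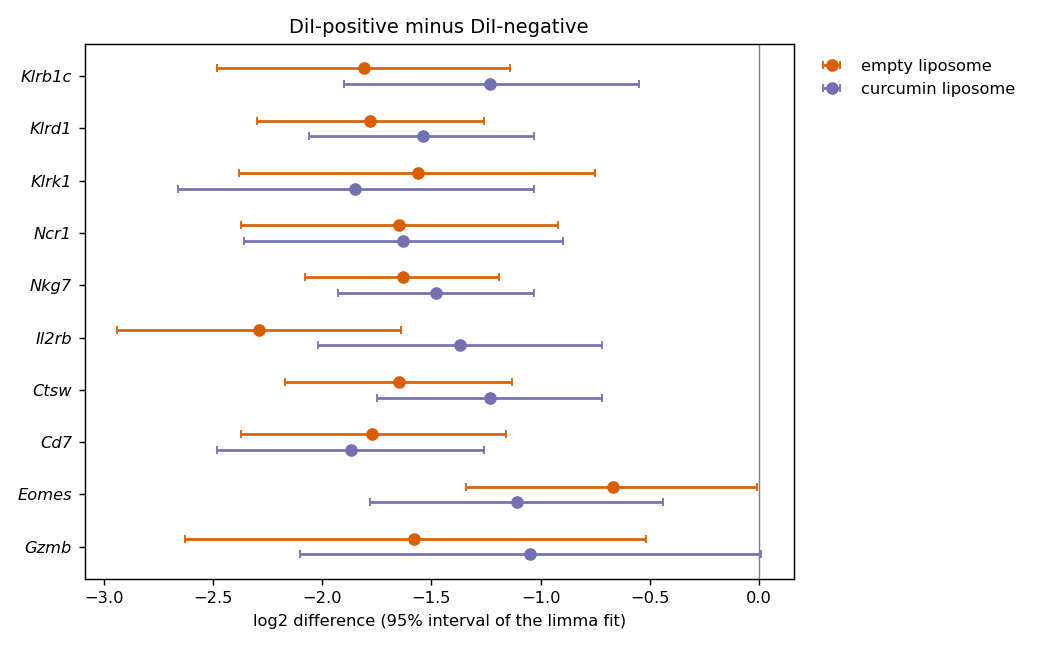
Difference in log2 value between DiI-positive and DiI-negative cells (horizontal axis) for each of the 10 genes after empty and curcumin liposomes, with 95% intervals of the limma fit. The genes were chosen for this difference; it ran from -2.29 for Il2rb to -0.67 for Eomes after empty liposomes.

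Levels of different genes were compared per kilobase of exon, as the log2 value less log2 of the exon length, averaged over the 12 libraries. On this scale Nkg7 and Cd7 were highest (10.55 each), followed by Ncr1 (9.49), Klrd1 (9.04), Ctsw (8.96), Il2rb (8.63), Klrk1 (8.21), Gzmb (7.97) and Klrb1c (7.13), with Eomes lowest (4.85). Klrk1 had the highest value before this step (11.05) and the longest annotated exons (7183 bases).

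Within groups, high and low libraries were often the same for many of the 10 genes. In curcumin DiI-positive replicate 3 all 10 genes had the highest value of their group, and in empty DiI-positive replicate 3 it was the lowest for 8 of the 10. Empty DiI-positive replicate 1 was highest for 7, empty DiI-negative replicate 1 for 8 and curcumin DiI-negative replicate 1 for 7. Averaged over the 10 genes, libraries deviated from their group mean by -0.39 to 0.44 in DiI-positive and by -0.12 to 0.20 in DiI-negative cells. In the 3 empty DiI-positive libraries the summed Kupffer cell level was 14.93, 15.51 and 16.46 as the mean of the 10 genes was 9.32, 8.92 and 8.53. In the 3 curcumin DiI-positive libraries both were highest in replicate 3, with Kupffer cell sums of 15.66, 16.12 and 16.98 beside means of 8.52, 8.68 and 9.26. The part of these markers in the result was not tested.

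Over deviations from the group means, the 45 pairs of genes had a median Pearson r of 0.55, from -0.69 to 0.88, across the 12 libraries, which share depth and cell mix. Of the pairs, 23 were above 0.5 and 5 below 0. Ncr1 had the highest median r with the other 9 genes (0.77), and its r was 0.87 with Nkg7, 0.84 with Eomes, 0.83 with Cd7 and 0.81 with Il2rb. Klrd1 varied with Cd7 (0.85) and with Klrk1 (0.84). Klrb1c stood apart, with a median r of -0.11 and -0.69 with Il2rb. In empty DiI-positive replicate 3 (depth index 0.97) Klrb1c was at the highest value of its group (8.53) and Il2rb at the lowest (8.74). In replicate 2 of that group, the library with the lowest depth index (0.76), Klrb1c was at its lowest value (7.04) and Il2rb at the highest of its group (10.18). The median r was 0.39 without curcumin DiI-positive replicate 3. Over the values themselves all 45 pairs were between 0.56 and 0.97, but those values include the gate difference the genes were chosen for.

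**Figure D3:**
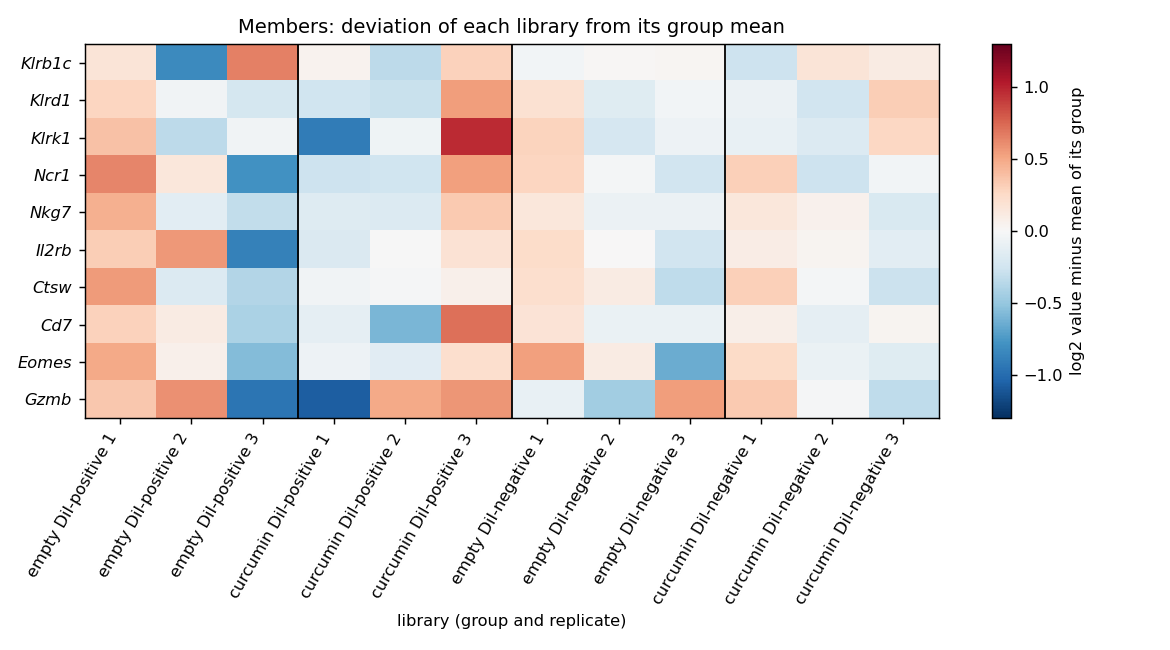
Deviation of each library's log2 value from the mean of its group (colour, red higher and blue lower) for the 10 genes (rows) in the 12 libraries (columns, 3 a group). Curcumin DiI-positive replicate 3 is above its group mean for all 10 genes, and empty DiI-positive replicate 3 is the lowest of its group for 8.

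Of 11623 other genes with an official symbol, those most like the mean of the 10 over the 12 libraries were ranked by Pearson r, which again holds the gate difference. Klrc1, which encodes NKG2A, a partner chain of CD94, came first (r = 0.992), with group means of 8.01 and 8.04 in empty and curcumin DiI-positive and 9.33 and 9.08 in the matching DiI-negative cells. Next was Ccl5, a chemokine stored by NK and T cells (r = 0.981), at 10.54 and 10.40 against 12.01 and 11.65. Slc35e1 (0.973), Cpne7 (0.971), Glud1 (0.965), Padi2 (0.964), Fam49b (0.963), the NK receptor gene Cd160 (0.962), Aes (0.961) and Cst7 (0.958), which encodes cystatin F, completed the first 10. Over deviations from the group means, where the gate difference is removed, Nacc1 (0.949), Klrc1 (0.942), Zfp839 (0.933), Clic3 (0.932) and Jam2 (0.926) were highest, so Klrc1 was in both rankings. These are the top of 11623 genes ranked over only 12 libraries, with no test. A high r there does not by itself tie a gene to the 10.

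The lists of other NK and cytotoxic genes were chosen with earlier results of these data known. They were compared in the same libraries that served to choose the 10. Other genes of the NK and cytotoxic system, from 8 lists with 104 genes besides the 10 (5 of them in more than 1 list), were tested in the same comparison. Of the 95 that passed the filter, 18 fell and 2 rose in DiI-positive cells after empty liposomes, where 1.62% of all genes fell and 1.32% rose, and 14 fell and 1 rose after curcumin liposomes, against 1.67% and 1.41% (limma, adjusted p under 0.05). Their median differences were -0.38 and -0.29. Passing under 1 liposome only does not show a difference between the liposomes. The test of whether the gate difference changed passed 0 of the 95 (limma, 2 at an unadjusted p under 0.05). Under both liposomes 9 fell, Klrb1a, Klrc1, Klre1, Cd160, Ccl5, Tbx21, Nfil3, Ikzf2 and Zfp683, and 1 rose, Ets1, where 0.879% of all genes fell and 0.682% rose in both. The count after empty liposomes was 10 and 9 without empty DiI-positive replicate 2 or 3, 5, 9 and 7 without empty DiI-negative replicate 1, 2 or 3, and 7 with the depth index as a covariate. After curcumin liposomes it was 5 without replicate 1 and 4 without replicate 2 of the curcumin DiI-positive group, 2 without replicate 1 and 7 without replicate 2 of the curcumin DiI-negative group, 3 when only the 6 libraries compared were fitted, 8 with no filter and 1 with the depth index.

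Receptors and adaptors fell in 8 of 29 tested genes under each liposome (medians -0.62 and -0.54). Klrc1 fell by 1.33 after empty and by 1.04 after curcumin liposomes (SE 0.198; limma adjusted p = 0.0079 and 0.020), Cd160 by 1.12 and 1.19 (SE 0.172; 0.0085 and 0.0063), Klre1 by 0.98 and 0.88 (SE 0.179; 0.016 and 0.025) and Klrb1a by 0.77 and 0.67 (SE 0.135; 0.014 and 0.025). Zap70, a kinase that passes on receptor signals, fell after empty liposomes (-0.72 ± 0.155 SE, limma adjusted p = 0.033), as did the activating Ly49 receptor gene Klra8 (-0.72 ± 0.159 SE, 0.036). After curcumin liposomes Zap70 was at -0.59 ± 0.155 and Klra8 at -0.45 ± 0.159 (SE, limma adjusted p = 0.066 and 0.15). Cd96 (-1.22 ± 0.223 SE, limma adjusted p = 0.017) and Cd226 (-1.33 ± 0.279 SE, 0.028), which encode receptors of nectin-type ligands, fell after curcumin liposomes. After empty liposomes Cd96 was at -0.39 ± 0.223 and Cd226 at -0.80 ± 0.279 (SE, limma adjusted p = 0.40 and 0.15). The adaptors through which NKG2D signals did not pass: Hcst was at 0.10 ± 0.135 (SE) and -0.05 ± 0.135 (limma adjusted p = 0.78 and 0.90), and Tyrobp, which myeloid cells also carry, at -0.33 ± 0.146 and -0.29 ± 0.146 (0.27 and 0.31). Klra and Klrb1 genes have near copies, so the division of reads among them is uncertain.

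Granule genes beyond the 10 were led by Rab27a, a GTPase of granule docking, the 1 of 15 that fell after empty liposomes (-0.80 ± 0.163 SE, limma adjusted p = 0.027); none of 15 fell after curcumin liposomes (5 at an unadjusted p under 0.05), with Rab27a at -0.50 ± 0.163 (0.12) and Tnfsf10, the death ligand TRAIL, at -0.89 ± 0.295 (0.13). The perforin gene Prf1 was at -1.62 ± 0.534 (SE) and -0.61 ± 0.534 (limma adjusted p = 0.13 and 0.60), and the granzyme genes Gzma at -1.12 ± 0.439 and -1.11 ± 0.439 (0.20 each) and Gzmm at -0.15 ± 0.108 and -0.11 ± 0.108 (0.52 and 0.63). The SE of Prf1, Gzma and Gzmb were larger than those of the receptor genes named here. Of 6 cytokine and chemokine genes, Ccl5 fell under both liposomes (-1.46 ± 0.191 SE and -1.25 ± 0.191; limma adjusted p = 0.0047 and 0.0083) and Xcl1, which attracts cDC1, after empty liposomes (-1.09 ± 0.211, 0.022). After curcumin liposomes Xcl1 was at -0.87 ± 0.211 (SE) and did not pass (limma adjusted p = 0.050). Ifng was low in every group, from 4.63 to 4.84, at differences of -0.10 ± 0.127 (SE) and -0.19 ± 0.127.

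In the system of interleukins 2, 15, 12 and 18 and their receptors, the partner chain and the ligand of Il2rb did not pass the test. Il2rg, the gamma chain that Il2rb pairs with, which other lymphocytes and myeloid cells also carry, was at -0.06 ± 0.118 (SE) and -0.17 ± 0.118 (limma adjusted p = 0.84 and 0.48), and Il15 at 0.06 ± 0.180 and 0.37 ± 0.180 (0.91 and 0.30). Of 15 tested genes, 1 fell after empty liposomes, Il18rap, a chain of the interleukin-18 receptor (-1.36 ± 0.242 SE, limma adjusted p = 0.015). None passed after curcumin liposomes (7 at an unadjusted p under 0.05), with Il18rap at -0.86 ± 0.242 (0.079) and Cish, an inhibitor of cytokine signalling, at -0.64 ± 0.216 (0.14).

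Transcription factor genes fell in 5 of 14 under each liposome, and 1 rose. Tbx21, which encodes T-bet, the T-box relative of Eomes, fell by 1.19 and by 1.22 (SE 0.223; limma adjusted p = 0.018 and 0.017). Nfil3, needed for the NK lineage, fell by 1.02 in each (SE 0.231; 0.040 in each), Ikzf2 by 0.67 and 0.54 (SE 0.0955; 0.0060 and 0.015), and Zfp683, the factor Hobit of liver ILC1, by 0.96 and 1.03 (SE 0.231; 0.049 and 0.036). In curcumin DiI-positive cells Zfp683 was at its lowest value of all libraries with little spread (5.99, SD 0.0115). Ikzf2 was near its lowest value (5.41) in empty DiI-positive cells (5.44, SD 0.0098). Whether a lower limit of the scale narrowed these spreads and differences was not tested. Tox fell after empty liposomes (-1.06 ± 0.203 SE, limma adjusted p = 0.021) and Runx3 after curcumin liposomes (-0.58 ± 0.139 SE, 0.049). Under the other liposome Tox was at -0.83 ± 0.203 and Runx3 at -0.44 ± 0.139 (SE, limma adjusted p = 0.052 and 0.12). Ets1, which B cells also carry, rose by 0.74 ± 0.150 (SE) and 0.88 ± 0.150 (limma adjusted p = 0.026 and 0.012). B cell markers rose in 6 of 11 genes under each liposome, beside Ets1, and their part in its rise was not tested.

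Genes that set NK cells apart from liver ILC1 did not move as 1 group. Of 7 tested markers of circulating NK cells, Klra8 fell after empty liposomes, and none passed after curcumin liposomes (3 at an unadjusted p under 0.05; Itgam at -0.57 ± 0.146 SE and Klra8 at -0.45 ± 0.159 SE, limma adjusted p = 0.061 and 0.15). Several of these 7, such as Itgam and Cx3cr1, are also carried by monocytes or other leukocytes. Of 7 ILC1 markers, the chemokine receptor gene Cxcr6 (-1.33 ± 0.216 SE, limma adjusted p = 0.011) and Zfp683 fell and Cd69 rose (0.87 ± 0.198 SE, 0.040) after empty liposomes, and Zfp683 fell after curcumin liposomes. After curcumin liposomes Cxcr6 was at -0.85 ± 0.216 and Cd69 at 0.67 ± 0.198 (SE, limma adjusted p = 0.058 and 0.095). At an unadjusted p under 0.05 there were 3 and 4 of the 7 in the limma fit. B cell markers rose in the same gate, and the part of other cells in the rise of Cd69 was not tested. Ligands of NK receptors did not pass in either comparison in the limma fit (0 of 7 tested, and 0 at an unadjusted p under 0.05): H2-T23, which encodes the Qa-1 molecule read by CD94, was at 0.16 ± 0.0818 (SE) and 0.08 ± 0.0818 (adjusted p = 0.35 and 0.66), Ulbp1, an NKG2D ligand, at -0.22 ± 0.184 after empty and Nectin2, a ligand of CD226, at 0.39 ± 0.201 and Clec2d, which encodes a ligand of NKR-P1 receptors, at 0.30 ± 0.160 after curcumin liposomes.

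**Figure D4:**
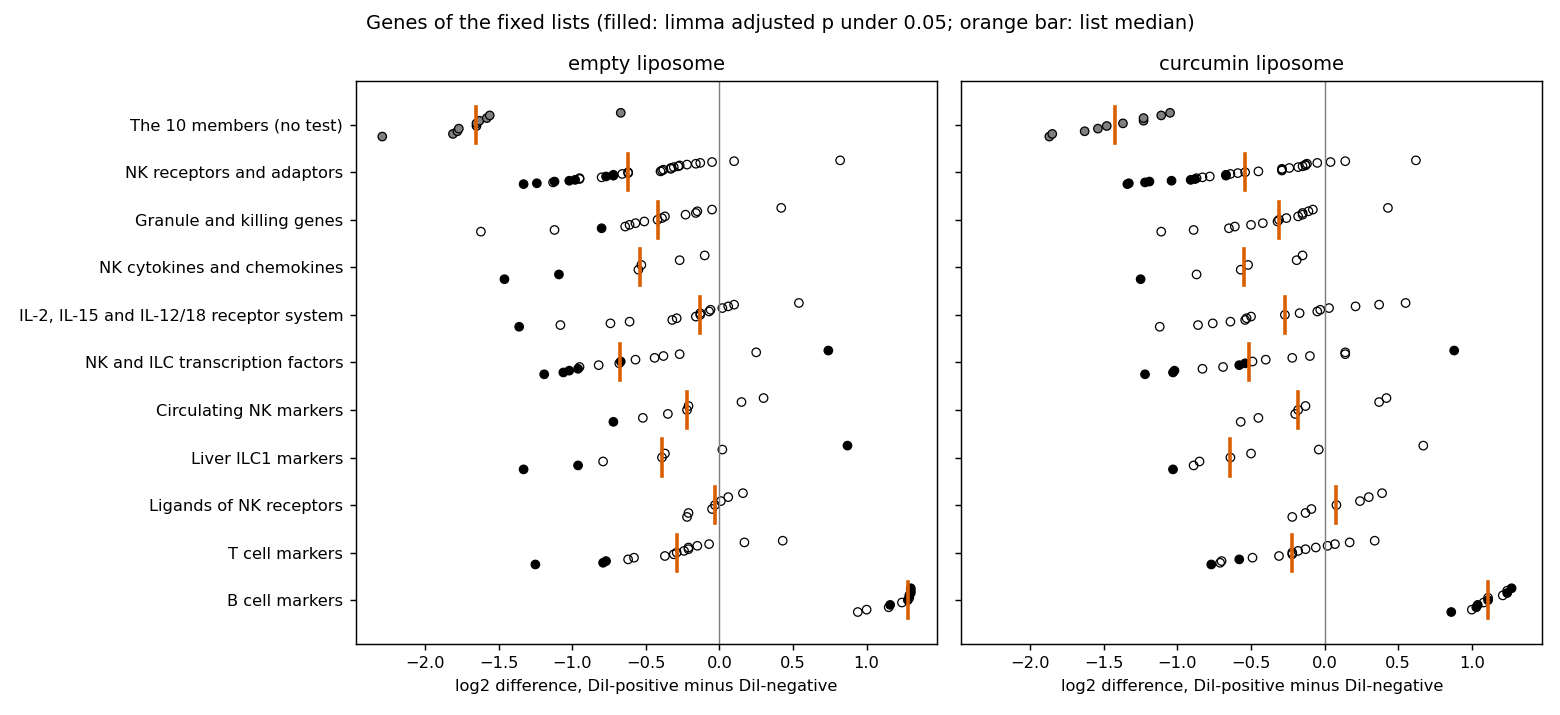
Difference in log2 value between DiI-positive and DiI-negative cells (horizontal axis) for each tested gene of 10 lists (rows). The left panel is after empty and the right after curcumin liposomes. Filled points have a limma adjusted p under 0.05, orange bars are list medians, and the 10 chosen genes in the top row carry no test. The lists were chosen with earlier results of these data known. Receptor genes have medians of -0.62 and -0.54, ligands -0.03 and 0.08, and B cell markers lie above 0.

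T cell markers were compared because T cells share many of the 10 genes. Of 15, 3 fell after empty liposomes, the receptor constant region genes Trbc1 (-1.25 ± 0.212 SE, limma adjusted p = 0.013) and Trbc2 (-0.79 ± 0.139 SE, 0.014) and the kinase Lck (-0.77 ± 0.154 SE, 0.025), and 2 after curcumin liposomes, Trbc2 (-0.77 ± 0.139 SE, 0.016) and Bcl11b (-0.58 ± 0.132 SE, 0.040). After curcumin liposomes Trbc1 was at -0.70 ± 0.212 and Lck at -0.49 ± 0.154 (SE, limma adjusted p = 0.10 and 0.11). Bcl11b was at -0.21 ± 0.132 (SE, 0.45) after empty liposomes. Cd3e, a chain of the T cell receptor complex, was at 6.60 and 6.65 in empty and curcumin DiI-positive and 6.81 and 6.71 in DiI-negative cells, differences of -0.21 ± 0.227 (SE) and -0.06 ± 0.227 (limma adjusted p = 0.70 and 0.92). Trac, a further receptor constant region gene, was at -0.07 ± 0.127 (SE) and -0.22 ± 0.127 (0.83 and 0.39). The median difference of the 15 was -0.29 and -0.22, with 13 and 11 below 0. Themis stood at 4.09 in curcumin DiI-positive cells, the lowest of its values, with nearly no spread (SD 0.000379). The summed level of the 15 ran from 11.69 to 12.06 in DiI-positive and from 12.04 to 12.60 in DiI-negative libraries. That of the 10 NK and cytotoxic genes ran from 12.19 to 13.01 and from 13.96 to 14.56. Monocyte markers also fell, 3 of 6 and 4 of 6, with summed levels of 15.18 to 15.34 and 15.59 to 16.20, and of cDC2 markers, those of the second conventional type, 2 of 6 fell under each liposome, with 14.71 to 15.15 and 15.13 to 15.45. No cDC1 or plasmacytoid marker passed (limma; 3 of 8 cDC1 and 0 of 7 plasmacytoid markers at an unadjusted p under 0.05 in each comparison). The part of these cell types in the lower NK and cytotoxic genes was not tested.

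The comparison of curcumin with empty liposomes did not serve to choose the genes and was tested. It sets the sorted cells of each gate after curcumin liposomes against those after empty liposomes. A different mix of cells and a different level per cell cannot be told apart in it. In DiI-positive cells 0 of the 10 genes passed (limma; 0 at an unadjusted p under 0.05), where 0% of all genes passed. The 3 with the smallest p were Nkg7 (-0.35 ± 0.205 SE, 95% interval -0.80 to 0.10, limma adjusted p = 0.69), Ncr1 (-0.52 ± 0.333, -1.25 to 0.21, 0.72) and Klrd1 (0.36 ± 0.237, -0.15 to 0.88, 0.72). The libraries of the groups overlapped for all 10 genes (5.09% of all genes lay wholly lower after curcumin liposomes and 4.93% wholly higher), 6 differences were below 0, and the median was -0.18. Each of the 10 intervals reached past a 1.5-fold change in at least 1 direction.

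In DiI-negative cells 0 of the 10 passed as well (limma; 1 at an unadjusted p under 0.05), again with 0% of all genes. Nkg7 had a mean of 10.94 ± 0.176 (SD, n = 3) with curcumin and 11.45 ± 0.131 with empty liposomes, a difference of -0.51 ± 0.205 (SE; 95% interval -0.95 to -0.06, limma adjusted p = 1.0, unadjusted p = 0.031). Il2rb was at 11.37 ± 0.122 (SD, n = 3) and 11.91 ± 0.243, a difference of -0.54 ± 0.297 (SE; -1.19 to 0.11), and Ncr1 at -0.53 ± 0.333 (SE; -1.26 to 0.20), with a limma adjusted p of 1.0 for both. For Klrb1c, Nkg7 and Il2rb the 3 curcumin libraries lay below the 3 empty ones, 3 of the 10 genes against 5.5% of all genes, and for none above them, against 5.73%. Of the 10 differences, 9 were below 0, with a median of -0.37 beside 0.00 over all genes. The 10 genes varied together within groups (median r 0.55 over deviations). Their counts of direction and overlap are therefore not separate results, and the genes were not tested as a set.

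Averaged over the gates, 0 of the 10 genes passed (limma; 2 at an unadjusted p under 0.05, 0% of all genes). Nkg7 was at -0.43 ± 0.145 (SE; 95% interval -0.75 to -0.11, limma adjusted p = 0.59), Ncr1 at -0.52 ± 0.235 (-1.04 to -0.01, 0.63) and Klrd1 at 0.24 ± 0.167 (-0.12 to 0.61, 0.77). The test of whether the gate difference changed between the liposomes likewise gave 0 of 10 (limma; smallest adjusted p = 1.0, 1 at an unadjusted p under 0.05, 0% of all genes). Il2rb had the smallest p: its gate difference of -2.29 after empty and -1.37 after curcumin liposomes differed by 0.92 ± 0.419 (SE; 95% interval 0.00 to 1.84, unadjusted p = 0.050), and by 0.48 without empty DiI-positive replicate 3. For Klrb1c the change was 0.58 ± 0.436 (SE; -0.37 to 1.54) and for Ctsw 0.41 ± 0.334 (-0.32 to 1.15). Klrb1c's was 0.17 without empty DiI-positive replicate 2 and 0.91 without replicate 3 of that group.

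**Figure D5:**
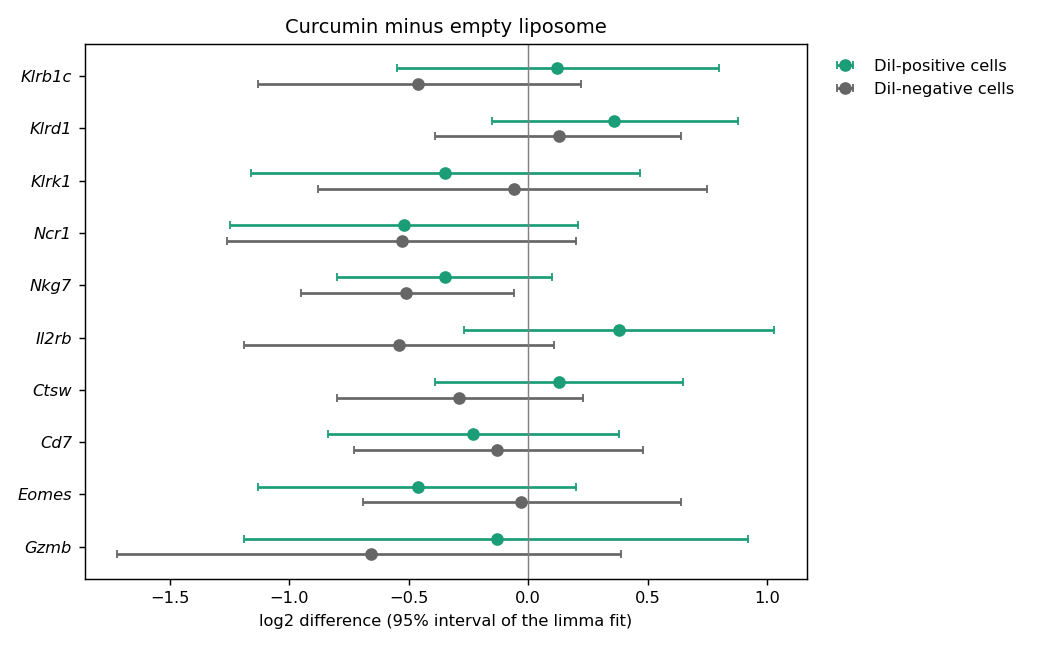
Difference in log2 value between curcumin and empty liposomes (horizontal axis) for the 10 genes in DiI-positive and DiI-negative cells, with 95% intervals of the limma fit. All intervals include 0 except that of Nkg7 in DiI-negative cells (-0.95 to -0.06), whose limma adjusted p was 1.0.

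Of the 95 other NK list genes, none passed in DiI-positive or in DiI-negative cells (limma; 5 and 8 at an unadjusted p under 0.05), with median differences of -0.04 and -0.10. In DiI-positive cells the 5 were Cd96 (-1 ± 0.223 SE, limma adjusted p = 0.42, with no overlap between the groups), Nectin2 (0.68 ± 0.201), Tbx21 (-0.59 ± 0.223), Zfp683 (-0.60 ± 0.231) and Cd226 (-0.69 ± 0.279), named here after their values were seen. In DiI-negative cells the 8 were Rora (-0.80 ± 0.282 SE), Jak1, Tbx21, Jak3, Klre1, Sh2d2a and Zfp683, which were lower, and Cd69 (0.46 ± 0.198), which was higher (limma adjusted p = 1.0 for each). Klrc1 was at 0.03 ± 0.198 (SE) in DiI-positive and -0.25 ± 0.198 in DiI-negative cells, and Ccl5 at -0.14 ± 0.191 and -0.36 ± 0.191 (limma adjusted p from 0.88 to 1.0).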

How the data were processed

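Gene-level log2 values, a file for each library, were deposited by the authors. STAR 2.4.0d, DESeq2 1.8.1 and GRCm38 are named in the submitters' processing notes; no source used here states the role of each, the read counter, the annotation or the transform. Cells were lysed for an RNeasy micro kit, cDNA was made with a low-input SMARTer kit and libraries with Nextera XT, per the labels' protocols. The 24 records carry 12 library codes, 2 records a code, and each code was counted as 1 library; EL, CL, P and N were read as empty and curcumin liposome, DiI-positive and DiI-negative. Values ran from -3.62 to 19.37, and 20918 of 45792 genes were at 0 throughout. Depth is not given by the values. An index was taken from 1009 genes whose values were read as a single count in 1 library. This reading could not be checked without counts.

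limma 3.58.1 in R 4.3.3 was fitted to all 12 libraries with 4 group means and eBayes with trend (8 residual and 3.51 prior degrees of freedom), over the 14227 genes with a mean of at least 4, with Benjamini-Hochberg adjusted p under 0.05 over all genes. The fit was tested on simulated data. Symbols and coordinates came from GENCODE M21 (GRCm38), promoter windows from RefSeq (GRCm38.p6). The members, lists and tests were chosen with earlier results of these data known. Named were all 10 genes, the 10 and 5 most alike genes, up to 6 genes of each NK list and of the T cell list past the threshold by p (or the 2 smallest p; the other marker lists, which the rule also covers, are given by counts and sums), the 3 members with the smallest p in each liposome comparison, and Hcst, Tyrobp, Prf1, Gzma, Gzmm, Ccl5, Tbx21, Ifng, Cd3e, Il2rg, Il15 and H2-T23. Alternatives were another filter, scaling, library weights, a replicate block, 2-group fits, leaving out each library, and, chosen after seeing the data, the depth index as a covariate.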

Additional observations from a re-analysis of the deposited data

How the results depend on the processing

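The 10 gate differences under each liposome kept their sign in all 400 recalculations, but the genes were chosen for this sign. Many recalculations could not change a difference, such as another filter, the replicate block or leaving out a library outside the comparison. With 1 library left out, the median difference ran from -1.91 to -1.51 after empty and from -1.56 to -1.33 after curcumin liposomes. Under the other alternatives it ran from -1.67 to -1.52 and from -1.43 to -1.37. No member passed in a comparison of liposomes or of gate differences under any alternative (limma; lowest adjusted p 0.29), and of all genes at most 4 did with 1 library left out.

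The count of NK list genes that fell was less stable. With 1 library left out it ran from 5 to 21 after empty and from 2 to 19 after curcumin liposomes. With the depth index as a covariate it was 7 and 1; after curcumin liposomes it was 8 with no filter and 3 with only the groups compared. The cause was not tested. The median r between members over deviations ran from 0.39 to 0.59 with 1 library left out. Same-numbered libraries had deviations with r from -0.11 to 0.33, above 0.1 in 2 pairs, replicates 3 of the curcumin gates (0.33) and of the DiI-positive groups (0.17). For libraries of different groups and different numbers, r ran from -0.24 to 0.20. Only gates of the same liposome could share animals. Between these, r for replicates 1 to 3 was 0.08, 0 and 0.08 after empty and 0.07, 0.03 and 0.33 after curcumin liposomes. The main fit did not pair libraries by number, and whether same-numbered libraries share animals is not known. With the replicate block, which also joins numbers across liposomes, the counts were 16 and 14. The medians, -1.65 and -1.43, cannot change under such a balanced block. Precision rests on 3 libraries a group, and the depth of each library is unknown.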
